A study of Phaseolus vulgaris with 18 samples.

Results

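Transcripts of 6 circadian clock genes were followed in developing pods of common bean (Phaseolus vulgaris). These were the genes that the deposited annotation describes as gigantea (GI, 2 copies), flavin-binding kelch repeat F-box 1 (FKF1, 1 gene) and pseudo-response regulator 5 (PRR5, 3 copies). They are 6 of the 25124 genes in the table, and all 6 were among the 22805 genes tested. They were chosen by their log2 fold changes between the lines at 10, 14 and 18 days after flowering (DAF) in these same libraries. For that reason their differences between the lines are given as sizes with standard errors (SE) and without a test. The copies are called GIa (Phvul.007G083500), GIb (Phvul.004G088300), PRR5a (Phvul.009G045000), PRR5b (Phvul.010G119700) and PRR5c (Phvul.009G258300) here, and FKF1 is Phvul.002G321800. The table gives no coordinates for these genes.

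In Arabidopsis, from which all the roles below are known, the clock is a loop of transcription factors that repress each other at successive times of day. GI is a large nuclear and cytoplasmic protein that peaks in the afternoon and stabilises F-box proteins that carry a blue-light-sensing LOV domain. FKF1 is such an F-box protein: bound to GI in the light, it marks CYCLING DOF FACTOR (CDF) repressors for breakdown, which frees the daylength gene CONSTANS. PRR5 is a transcriptional repressor that acts in the afternoon on the morning genes CCA1 and LHY. The labels give no hour of collection for any library.

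The golden group was line A18-1, whose pods turn from green to gold as they reach marketable maturity, and the green group was line Renaya, whose pods stay green until ripening. Pod walls of untreated plants from a climate chamber were sampled at 10, 14 and 18 DAF, with 3 independent biological repeats for each line and age, 18 libraries in all. The design text names pod walls, but the tissue field of the labels reads leaf and the extraction protocol speaks of adipose, and this was not resolved. The lines are different cultivars, so alleles at any locus can differ between them as well as the pod colour locus. Total counts were 48757139 to 74377200 per library, replicates correlated at 0.914 to 0.976 over genes, and the first principal component (40.7% of the variance) had golden libraries on the negative side and green libraries on the positive side. Of 33 AGAMOUS-like genes listed as fruit identity markers, 9 had a median over 1 FPKM and 17 a median of 0. Of the 3 annotated as AGAMOUS-like 8, the name of the Arabidopsis gene FRUITFULL, Phvul.009G203400 stood at 30.1 to 222 FPKM, Phvul.008G027800 at 0 to 6.41 and Phvul.004G042450 at 0 to 0.227, and these levels do not settle the tissue. FPKM are fragments per kilobase of transcript, scaled to each library's mapped fragments, and can be compared between genes. Log2 fold changes come from counts scaled between libraries by TMM (trimmed mean of M values), and a gene counted as called where its adjusted p was under 0.05. FPKM are not scaled that way. At 18 DAF in the golden line the median of all genes was shifted on the log2(FPKM + 1) scale. The shift was -0.12 against 10 DAF, -0.14 against 14 DAF and -0.10 against the green line. On the log2(FPKM + 0.1) scale these shifts were -0.18, -0.19 and -0.15. FPKM of that group therefore read low, and overlaps of libraries at 18 DAF, judged in FPKM, can depend on the scaling.

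All 6 genes were higher in golden than in green pods at 10 and 14 DAF, and the lines came close together by 18 DAF. The gap ranged from 2.0-fold for PRR5c to 24.8-fold for PRR5a at 10 DAF, from 3.12-fold for GIa to 15.7-fold for PRR5a at 14 DAF, and from 1.38-fold for GIa and PRR5c to 2.11-fold for PRR5b at 18 DAF. From 10 to 18 DAF GIb, FKF1 and PRR5a were called higher in green and lower in golden pods. The golden calls of GIb and FKF1 over those ages ended when single libraries were left out. In golden pods GIa, at a log2 change of -0.41, was not called, and PRR5b and PRR5c stood at 0.03 and -0.02. The choice of genes by the gap between the lines can itself favour such changes. In green pods 5 of the 6 were called higher from 10 to 18 DAF, against 19.3% of all tested genes. In golden pods 4 of the 6 were called lower from 14 to 18 DAF, against 4.95%. Of these golden calls, all but that of PRR5a ended when single libraries were left out, and 0 held with the compared groups alone. Highest and lowest library lay 54.3-fold apart for GIb, 51.8-fold for PRR5a, 19.9-fold for FKF1, 6.68-fold for GIa, 5.47-fold for PRR5b and 4.34-fold for PRR5c in FPKM.

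**Figure D1:**
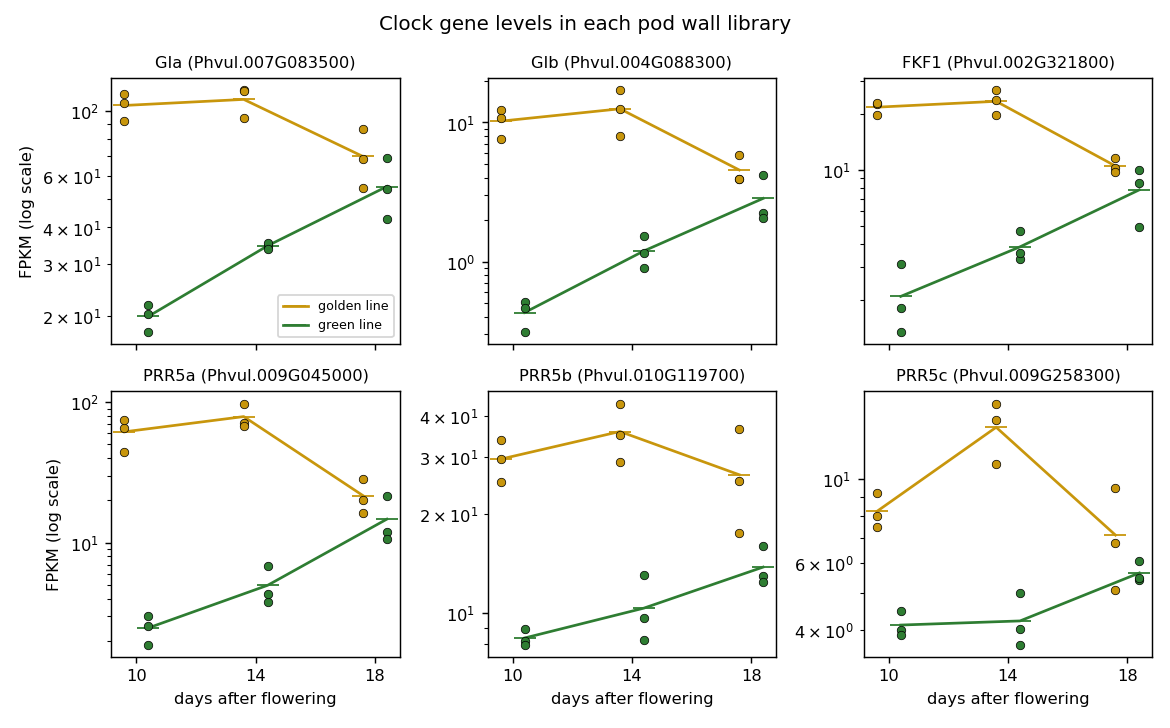
FPKM (log scale) of the 6 genes against days after flowering; each point is 1 library, and lines join the means of 3 libraries of the golden (yellow) and green (green) line. At 10 and 14 DAF every golden library lies above every green library in FPKM. At 18 DAF this holds for PRR5b alone on this scale, which is without TMM scaling.

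GIa was the most abundant of the 6. Golden libraries had 92.4, 114 and 107 FPKM at 10 DAF, 118, 117 and 94.4 at 14 DAF, and 54.4, 68.5 and 86.9 at 18 DAF. Green libraries had 20.2, 21.8 and 17.6 FPKM at 10 DAF, 34.7, 35.4 and 33.8 at 14 DAF, and 42.7, 68.9 and 54.0 at 18 DAF. The lines did not overlap at 10 and 14 DAF, whereas at 18 DAF the highest green library lay above the lowest golden one. The mean level was 105 ± 11.1 FPKM in golden and 19.9 ± 2.11 in green pods at 10 DAF (SD, n = 3), which is a log2 difference of 2.40 (SE 0.19). It was 1.64 (SE 0.18) at 14 DAF and 0.46 (SE 0.18) at 18 DAF. By FPKM, GIa stood at percentile 94.5 of the tested genes in golden pods at 10 DAF and at percentile 71.1 in green pods. In the order of the 6 group means, golden 14 and golden 10 DAF did not differ beyond their spread (110 ± 13.2 and 105 ± 11.1), nor did golden 18 and green 18 DAF (70.0 ± 16.3 and 55.2 ± 13.1), while the other neighbours did not overlap.

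GIb was the minor copy, and its relative gap between the lines was larger. Golden libraries had 7.57, 12.2 and 10.8 FPKM at 10 DAF, 12.6, 17 and 8.04 at 14 DAF, and 3.89, 3.92 and 5.85 at 18 DAF. Green libraries had 0.313, 0.512 and 0.463 FPKM at 10 DAF, 1.15, 0.898 and 1.52 at 14 DAF, and 2.24, 4.22 and 2.07 at 18 DAF. Every green library at 10 DAF was under 1 FPKM, and in FPKM the lines overlapped only at 18 DAF. The log2 difference between the lines was 4.58 (SE 0.36) at 10 DAF, 3.37 (SE 0.34) at 14 DAF and 0.80 (SE 0.31) at 18 DAF. In golden pods at 10 DAF its level was at percentile 52.3 of the tested genes, and in green pods at percentile 11.7. The lowest count behind any of these values was 87, in a green library at 10 DAF.

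FKF1, the blue-light F-box partner of GI, showed the same order of groups. Golden libraries had 19.9, 22.5 and 22.9 FPKM at 10 DAF, 19.7, 26.8 and 23.8 at 14 DAF, and 11.6, 10.2 and 9.75 at 18 DAF. Green libraries had 1.35, 3.10 and 1.80 FPKM at 10 DAF, 4.67, 3.33 and 3.56 at 14 DAF, and 4.91, 9.99 and 8.54 at 18 DAF. At 18 DAF a single green library, at 9.99, reached above the lowest golden one. The mean level was 21.8 ± 1.67 FPKM in golden and 2.08 ± 0.912 in green pods at 10 DAF, a log2 difference of 3.40 (SE 0.31). It was 2.57 (SE 0.30) at 14 DAF and 0.56 (SE 0.28) at 18 DAF. Golden pods at 10 and 14 DAF (21.8 ± 1.67 and 23.4 ± 3.56) did not differ beyond their spread.

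PRR5a had the largest log2 difference of the 6 at 10 and 14 DAF, while at 18 DAF those of PRR5b and GIb were larger. Golden libraries had 44.0, 65.6 and 74.8 FPKM at 10 DAF, 71.1, 97.6 and 67.9 at 14 DAF, and 20.3, 16.4 and 28.3 at 18 DAF. Green libraries had 2.54, 3.02 and 1.89 FPKM at 10 DAF, 3.77, 4.33 and 6.86 at 14 DAF, and 11.9, 21.7 and 10.6 at 18 DAF. The lines lay far apart at 10 and 14 DAF and overlapped at 18 DAF through the green library at 21.7. The log2 difference was 4.63 (SE 0.34) at 10 DAF, 3.97 (SE 0.33) at 14 DAF and 0.68 (SE 0.29) at 18 DAF. Its percentile among the tested genes at 10 DAF was 90.6 in golden and 26.5 in green pods.

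PRR5b kept a gap at all 3 ages. Golden libraries had 25.1, 29.5 and 33.8 FPKM at 10 DAF, 43.6, 35.0 and 28.8 at 14 DAF, and 17.5, 36.5 and 25.3 at 18 DAF. Green libraries had 8.93, 8.18 and 7.98 FPKM at 10 DAF, 8.26, 9.63 and 13.1 at 14 DAF, and 13.0, 15.9 and 12.4 at 18 DAF. No golden library overlapped a green one, although at 18 DAF the margin was narrow, at 17.5 against 15.9. The log2 difference was 1.82 (SE 0.25), 1.78 (SE 0.24) and 1.08 (SE 0.24) at 10, 14 and 18 DAF. Within each line the neighbouring ages overlapped.

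PRR5c was the lowest of the PRR5 copies in golden pods. Golden libraries had 7.49, 7.99 and 9.19 FPKM at 10 DAF, 14.4, 15.9 and 10.9 at 14 DAF, and 5.08, 9.50 and 6.77 at 18 DAF. Green libraries had 4.48, 4.0 and 3.87 FPKM at 10 DAF, 5.0, 3.65 and 4.01 at 14 DAF, and 5.41, 5.48 and 6.07 at 18 DAF. The lowest golden library at 18 DAF lay below all 3 green ones. The log2 difference was 1.00 (SE 0.23) at 10 DAF, 1.67 (SE 0.23) at 14 DAF and 0.47 (SE 0.23) at 18 DAF, so PRR5c was the only copy with its largest gap at 14 DAF.

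In FPKM, every golden library lay above every green one for 6, 6 and 1 of the 6 genes at 10, 14 and 18 DAF. The same held for 30.2%, 26.5% and 8.37% of all tested genes. These counts rest on the comparisons that picked the genes, so nothing is read from them. The median log2 difference of the 6 was 2.90, 2.18 and 0.62, beside medians over all tested genes of 0.02, -0.01 and -0.02. In RNA from whole pod walls, fewer cells that express a gene and less RNA per cell cannot be told apart.

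Changes with age inside each line were not used directly to pick the genes, but the same libraries serve both kinds of comparison. A choice by the gap between the lines can favour low green and high golden values at the earlier ages, where the gap was large. Later rises in green pods and falls in golden pods can therefore be partly built into the choice. The changes with age were tested with edgeR's quasi-likelihood test, adjusted by the Benjamini-Hochberg method over all tested genes. Neither the adjusted p-values nor the shares of all tested genes allow for the choice. In green pods the genes rose. From 10 to 18 DAF, 5 of the 6 were called higher, against 19.3% of all tested genes. GIa rose by a log2 change of 1.53 (SE 0.18, adjusted p = 5.3e-05) and GIb by 2.78 (SE 0.33, 5.7e-05). FKF1 rose by 1.97 (SE 0.29, 2.4e-04) and PRR5a by 2.61 (SE 0.31, 5.3e-05). These 4 calls held when any of the 6 libraries was left out. PRR5b rose by 0.78 (SE 0.24, adjusted p = 0.021), and this call ended without green 10 DAF replicate 2 or 3 or green 18 DAF replicate 2 (adjusted p up to 0.08). PRR5c, at 0.52 (SE 0.23), did not pass (adjusted p = 0.089).

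The rise in green pods was spread over both intervals. From 10 to 14 DAF, 3 of the 6 were called higher, against 5.09% of all tested genes (1.27% to 6.42% with any 1 library left out): GIa at a log2 change of 0.81 (adjusted p = 0.015), GIb at 1.48 (0.014) and PRR5a at 1.00 (0.0496). These 3 calls each ended when some single libraries were left out. That of GIa ended without green 10 DAF replicate 3 or green 14 DAF replicate 2 (adjusted p up to 0.08). That of GIb ended without green 10 DAF replicate 1 or 3 or green 14 DAF replicate 3 (up to 0.063), and that of PRR5a without any 1 of 5 libraries, all but green 14 DAF replicate 1 (up to 0.21). With limma on log2(FPKM + 1) the calls of GIb and PRR5a also ended (over all settings the adjusted p reached 0.17 and 0.21), and that of PRR5a ended without the filter on low counts (0.057) and with limma on log2(FPKM + 0.1) (0.067) as well. FKF1, at 0.91, did not pass in edgeR with all libraries (adjusted p = 0.062), and passed without green 10 DAF replicate 2 (0.026) and in DESeq2 (0.026).

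From 14 to 18 DAF in green pods, 4 of the 6 were called higher, against 3.95% of all tested genes (0.94% to 5.82% with any 1 library left out). PRR5a rose by 1.61 on the log2 scale (adjusted p = 0.0089, and 0.0087 to 0.043 with any 1 library left out). GIa rose by 0.72 (0.029), GIb by 1.30 (0.026) and FKF1 by 1.05 (0.039). The call of GIb also ended with limma on log2(FPKM + 1) (adjusted p = 0.077). Without green 18 DAF replicate 2, in which GIa, GIb and FKF1 were at their highest, or without any 1 green 14 DAF library, the calls of these 3 genes ended, and those of GIa and FKF1 also ended without green 18 DAF replicate 3 (adjusted p up to 0.11 for GIa, 0.086 for GIb and 0.13 for FKF1). None of the 4 calls held when the edgeR model was fitted to these 6 libraries alone, although 5 of the 6 genes were then at an unadjusted p under 0.05. Over all settings the adjusted p reached 0.11, 0.10, 0.13 and 0.064 for GIa, GIb, FKF1 and PRR5a.

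In golden pods the falls came after 14 DAF. From 10 to 14 DAF edgeR called 0 of the 6, and 1.3% of all tested genes in either direction. That share was 0.0388% without golden 10 DAF replicate 2, 7.97% without golden 14 DAF replicate 3 and 9.01% in DESeq2. At an unadjusted p under 0.05 there was 1, PRR5c at a log2 change of 0.72 (adjusted p = 0.10), which DESeq2 called and limma on FPKM did not. Without golden 14 DAF replicate 3 edgeR called it too (adjusted p = 0.0462). From 14 to 18 DAF 4 of the 6 were called lower, against 4.95% of all tested genes (1.59% to 8.0% with any 1 library left out). PRR5a fell by 1.68 on the log2 scale (SE 0.3, adjusted p = 0.0057), and the call held with any of the 6 libraries left out (0.0068 to 0.027). GIb fell by 1.27 (adjusted p = 0.021), FKF1 fell by 0.96 (0.042) and PRR5c fell by 0.74 (0.0494).

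The calls of GIb, FKF1 and PRR5c from 14 to 18 DAF ended when single libraries were left out. Their log2 changes under omissions still ran from -1.5 to -0.99, -1.06 to -0.85 and -1.06 to -0.55. GIb lost its call without golden 14 DAF replicate 1 or 2 or golden 18 DAF replicate 1 (adjusted p up to 0.10). FKF1 lost it without any 1 of the 6 libraries (0.0529 to 0.14), and PRR5c without golden 14 DAF replicate 1 or 2 or golden 18 DAF replicate 1 or 3 (up to 0.19). The call of PRR5c also ended without the filter on low counts. GIa, at -0.46 (adjusted p = 0.11), and PRR5b, at -0.23 (0.58), did not pass in edgeR, while DESeq2 (0.045) and limma on log2(FPKM + 1) (0.029) called GIa. In an edgeR model of these 6 libraries alone none of the 6 genes was called, with 4 at an unadjusted p under 0.05.

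From 10 to 18 DAF in golden pods 3 of the 6 were called lower, against 9.37% of all tested genes (5.73% to 10.7% with any 1 library left out). PRR5a fell by 1.34 (adjusted p = 0.0060, and 0.0080 to 0.028 with any 1 library left out), GIb fell by 1.00 (0.034) and FKF1 fell by 0.87 (0.040). The call of GIb ended without golden 10 DAF replicate 2 or 3 or golden 18 DAF replicate 1 or 2 (up to 0.12), and that of FKF1 without any 1 of the 6 libraries (0.062 to 0.12). GIa, at -0.41, did not pass in edgeR (adjusted p = 0.12) and passed with limma on log2(FPKM + 1) (0.029), and PRR5b and PRR5c, at 0.03 and -0.02, were near the median change of all genes.

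**Figure D2:**
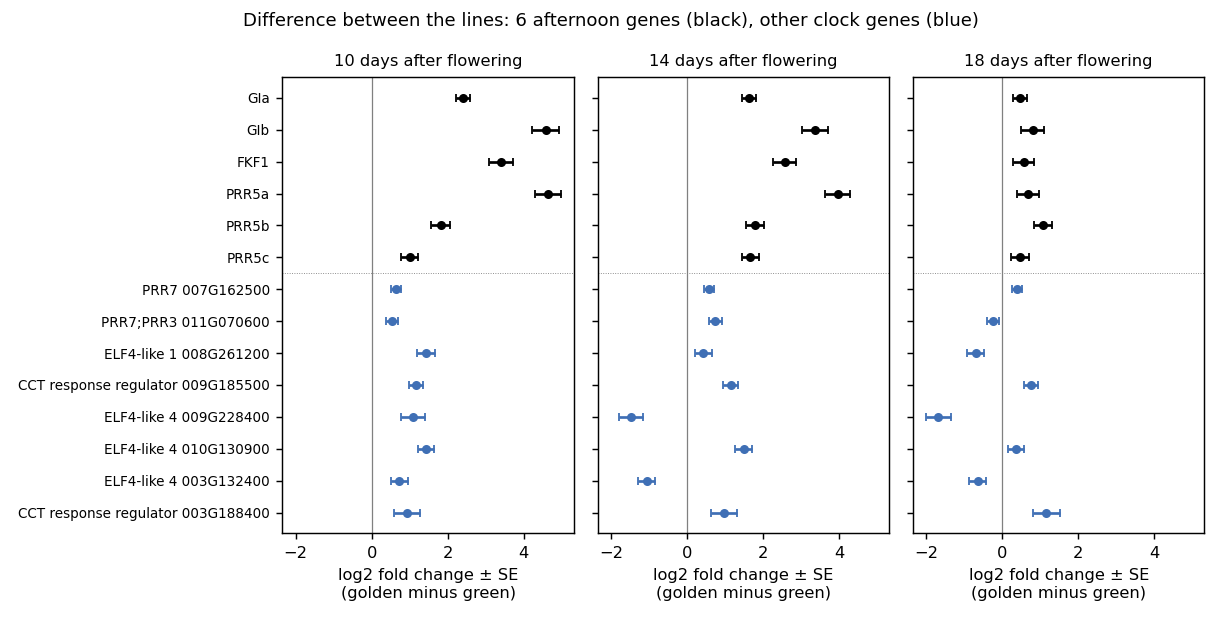
Log2 fold change of golden against green pods (x axis, with SE) at 10, 14 and 18 days after flowering for the 6 afternoon genes (black) and 8 other core clock genes (blue), from 18 libraries. The black points lie right of 0 at every age, from 1.00 to 4.63 at 10 DAF and from 0.46 to 1.08 at 18 DAF.

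The copies of a gene did not keep fixed proportions. GIb made up 8.82% ± 1.11 of the GI transcripts in golden pods at 10 DAF, 10.1% ± 2.44 at 14 DAF and 6.13% ± 0.643 at 18 DAF (share of FPKM, SD, n = 3). In green pods its share was 2.13% ± 0.538, 3.33% ± 0.923 and 4.81% ± 1.05. Its share at 10 and 14 DAF was therefore higher in every golden library than in any green one, and at 18 DAF the libraries of the lines overlapped.

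PRR5a was the main PRR5 copy in golden pods at 10 and 14 DAF, with 61.5% ± 3.54 and 61.3% ± 5.55 of PRR5 transcripts. In green pods of those ages PRR5b was the main copy, at 56.0% ± 2.12 and 52.6% ± 3.54, and PRR5a held 16.5% ± 3.10 and 25.1% ± 3.29. At 18 DAF PRR5a and PRR5b were nearly level in both lines, with PRR5a at 40.2% ± 12.1 in golden and 42.0% ± 7.30 in green pods. Golden 18 DAF replicate 2 stood apart there, with a PRR5a share of 26.2% beside 47.4% and 46.9%. PRR5c held 8.44% to 12.8% of PRR5 transcripts in golden groups and 17.1% to 27.5% in green groups. Reads of similar copies may have been divided between them by the counting, and strand was not stated.

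**Figure D3:**
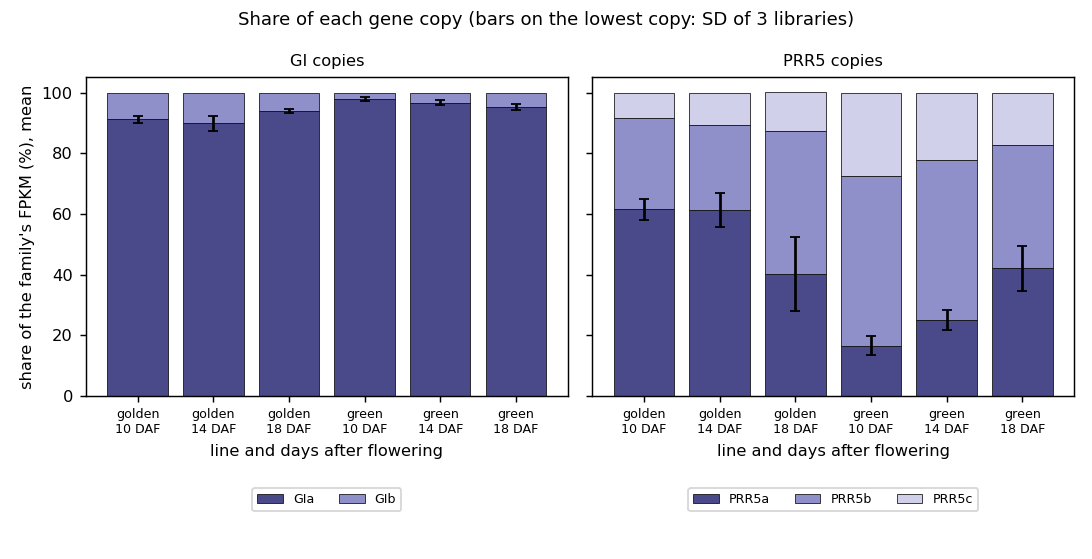
Mean share of each gene copy (percent of the family's FPKM) for GI (left) and PRR5 (right) in the 6 groups, with the SD of 3 libraries drawn on the lowest segment. PRR5a holds over 60% of the PRR5 bar in golden pods at 10 and 14 DAF and under 30% in green pods of those ages.

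Relative to GI, FKF1 was lower in young green pods. There were 10.2 ± 3.68 FKF1 FPKM for every 100 FPKM of GI (both copies) in green pods at 10 DAF and 19.0 ± 1.10 in golden pods, with no overlap between libraries. At 18 DAF the ratios were 13.3 ± 2.17 and 14.8 ± 4.70 and overlapped. PRR5 (3 copies) stood at 54.6 ± 11.4 per 100 GI in green and 105 ± 5.90 in golden pods at 14 DAF, with no overlap, and at 74.0 ± 5.20 and 86.0 ± 12.3 at 10 DAF, where the libraries overlapped.

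Across the 18 libraries the log2 levels of the 6 genes were correlated at r = 0.85 to 0.99 in the 15 pairs (median 0.92). That range contains the line difference for which they were picked. With each line's mean removed r was 0.53 to 0.95 (median 0.72), and within the groups of 3 it was -0.15 to 0.73 (median 0.37, 13 of 15 pairs positive). GIb and PRR5a were the closest pair on all of these scales (0.99, 0.95 and 0.73). The libraries share depth and scaling between genes, so these values are a description.

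Other core clock genes were taken from a list by annotation. Both genes of the dawn and morning list were higher in golden pods at 10 and 14 DAF, beside 32.6% and 41.5% of all tested genes called in either direction (20.6% to 35.7% and 31.2% to 44.0% with any 1 library left out). PRR7 (Phvul.007G162500), a morning-phased relative of PRR5, stood at 49.3 ± 5.64 against 32 ± 3.01 FPKM at 10 DAF. Its log2 difference was 0.63 (SE 0.13, adjusted p = 0.0019) at 10 DAF, 0.59 (0.0022) at 14 DAF and 0.39 (0.0493) at 18 DAF. A fused locus annotated as PRR7 and PRR3 (Phvul.011G070600;Phvul.011G070700), which counts on both the dawn and the evening list, was higher by 0.54 (0.018) and 0.75 (0.0021) and then at -0.25 (0.33). The call of PRR7 at 18 DAF ended without any 1 of 5 libraries, all but green 18 DAF replicate 3 (adjusted p up to 0.17), and also without the filter on low counts, with limma on FPKM and with these 6 libraries alone. That of the fused locus at 10 DAF ended without golden 10 DAF replicate 3 or green 10 DAF replicate 2 or 3 (up to 0.087).

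Of the 7 tested genes on the evening list, 6 were higher in golden pods at 10 DAF. At 14 DAF 4 were higher and 2 lower, and at 18 DAF, where 15.0% of all tested genes were called in either direction, 2 were higher and 1 lower. A CCT-motif response regulator that KEGG assigns to TOC1 (Phvul.009G185500), a dusk-phased relative of PRR5, had 20.2, 22.9 and 31.5 FPKM in golden and 9.89, 12 and 11.7 in green libraries at 10 DAF. It was higher at all 3 ages, by a log2 difference of 1.16 (adjusted p = 4.1e-04), 1.15 (4.0e-04) and 0.75 (0.014). The other such gene (Phvul.003G188400) was higher at 14 and 18 DAF, by 0.97 (0.035) and 1.16 (0.035), and stood at 0.93 at 10 DAF (0.0509). The call of the former at 18 DAF ended without green 18 DAF replicate 1 (adjusted p = 0.057). That of the latter at 14 DAF ended without any 1 library but golden 14 DAF replicate 3 (up to 0.14), and at 18 DAF without golden replicate 1 or 3 or green replicate 1 or 2 (up to 0.13).

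ELF4-like genes, relatives of a subunit of the Arabidopsis evening complex, differed among themselves. ELF4-like 4 on Phvul.009G228400 went from 17.9 ± 4.17 to 10.6 ± 4.58 and 8.16 ± 2.14 FPKM over the 3 ages in golden pods, and from 8.45 ± 0.514 to 29.4 ± 8.72 and 28.3 ± 7.89 in green pods. It was higher in golden pods at 10 DAF (log2 1.09, adjusted p = 0.017) and lower at 14 DAF (-1.47, 0.0024) and 18 DAF (-1.68, 0.0030). ELF4-like 4 on Phvul.003G132400 was at 0.73 (0.021), -1.06 (0.0020) and -0.65 (0.062). The copy on Phvul.010G130900 was higher at 10 and 14 DAF, by 1.43 (3.0e-04) and 1.49 (2.1e-04), and ELF4-like 1 (Phvul.008G261200) at 10 DAF, by 1.43 (5.6e-04). At 10 DAF the call of Phvul.009G228400 ended without golden replicate 2 or green replicate 3 (adjusted p up to 0.067), and that of Phvul.003G132400 without golden replicate 2 or green replicate 2 or 3 (up to 0.093). In green pods 6 of the 7 evening genes rose from 10 to 18 DAF, beside 34.9% of all tested genes changed in either direction, and in golden pods 2 fell, beside 20.7% (11.7% without golden 10 DAF replicate 1).

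The change from 10 to 18 DAF differed between the lines for 5 of the 7 evening genes, all in the direction of a lower change in golden pods. Over all tested genes 9.9% were called in this comparison (4.69% to 14.3% with any 1 library left out). The difference of the changes was -2.77 (SE 0.45, adjusted p = 0.0020) for ELF4-like 4 on Phvul.009G228400 and -2.13 (SE 0.33, 0.0016) for ELF4-like 1. It was -1.37 (0.014) for Phvul.003G132400, -1.08 (0.037) for Phvul.010G130900 and -0.79 (0.039) for the fused PRR7 and PRR3 locus. The last 2 calls ended when any 1 of 10 of the 12 libraries was left out, all but golden 18 DAF replicate 2 and green 18 DAF replicate 3 (adjusted p up to 0.089 and 0.11). For the 6 afternoon genes the same quantity, untested because it is built from the comparisons that picked them, was -1.94 (SE 0.25) for GIa, -3.77 (0.45) for GIb, -2.84 (0.40) for FKF1, -3.96 (0.42) for PRR5a, -0.74 (0.34) for PRR5b and -0.54 (0.32) for PRR5c.

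Homeodomain genes that KEGG assigns to LHY, the morning factor that PRR5 represses in Arabidopsis numbered 12, of which 3 were higher and 1 lower in golden pods at 10 DAF, 2 and 1 at 14 DAF, and 3 higher at 18 DAF. The shares called, 33.3%, 25.0% and 25.0%, stood beside 32.6%, 41.5% and 15.0% of all tested genes. Phvul.009G259650 was the lower one. It stood at 5.49 ± 0.376 FPKM in golden and 15.4 ± 1.20 in green pods at 10 DAF (log2 -1.48, adjusted p = 0.0060), was at -1.04 (0.029) at 14 DAF, and stood at 13.1 ± 1.84 and 7.91 ± 4.04 at 18 DAF (0.85, 0.12). Its change from 10 to 18 DAF was higher in golden pods by 2.34 (SE 0.50, adjusted p = 0.010). Phvul.007G074500 followed the afternoon genes instead, at 22.8 ± 2.13 against 1.71 ± 0.875 FPKM at 10 DAF (log2 3.73, adjusted p = 1.2e-04), 3.49 at 14 DAF (1.9e-04) and 1.14 at 18 DAF (0.11). Phvul.008G059000 was higher at all 3 ages, by 1.55 (0.0075), 1.27 (0.016) and 1.53 (0.015), and Phvul.001G174200 was higher at 10 DAF from low levels (3.0 ± 2.12 against 0.0297 ± 0.0514 FPKM). Of these line calls, those that ended when 1 library was left out were of Phvul.009G259650 at 14 DAF (golden replicate 2 or 3 or green replicate 1 or 3, up to 0.10), of Phvul.008G059000 at 14 DAF (either replicate 1, up to 0.085) and 18 DAF (golden replicate 2 or green replicate 3, up to 0.065) and of Phvul.001G174200 (green replicate 2 or 3, up to 0.059).

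**Figure D4:**
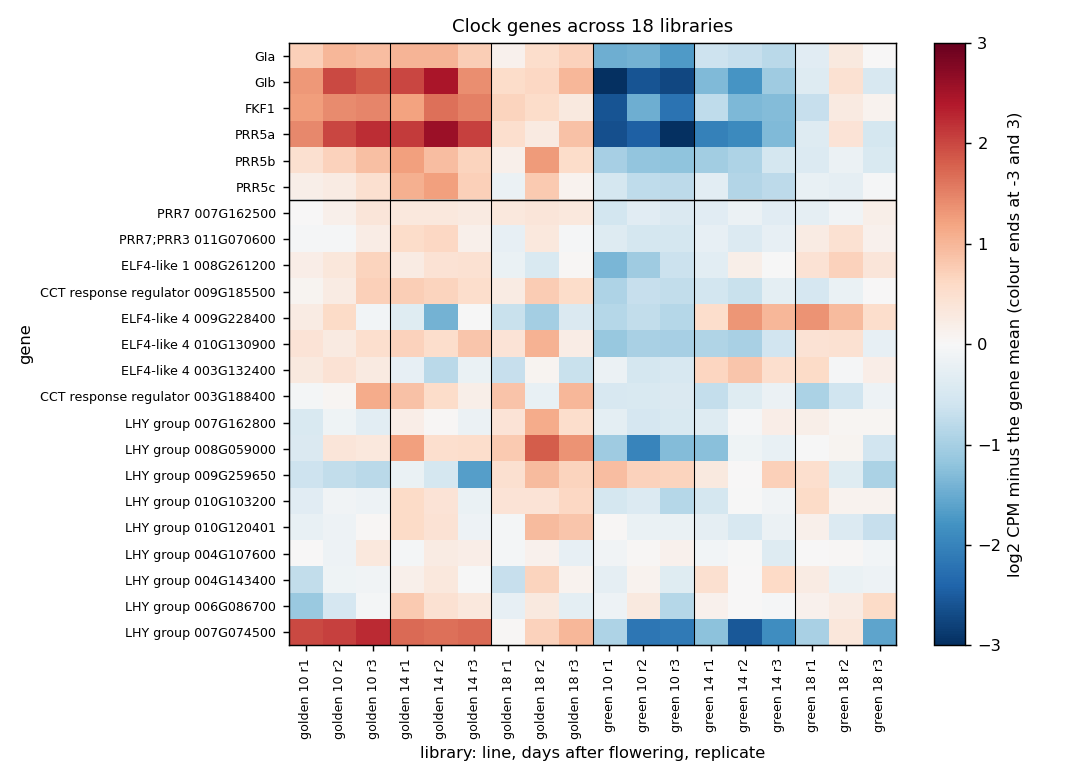
Log2 CPM minus the gene's mean (colour scale, -3 to 3) for the 6 afternoon genes (top rows), the 8 other core clock genes and the 9 LHY-group genes with a mean over 1 FPKM, in 18 libraries ordered by line and age. The top rows are red in golden libraries at 10 and 14 DAF and blue in green libraries of those ages, while rows of the LHY group differ in sign.

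How closely the kelch-repeat and LOV-domain genes that KEGG assigns to ZTL are related to FKF1 was not examined. This group held 5 tested genes. Of these 2 were higher at 10 DAF, 2 higher and 1 lower at 14 DAF, and 2 higher at 18 DAF (40.0%, 60.0% and 40.0% called). Over all tested genes the shares called in either direction were 32.6%, 41.5% and 15.0%. PAS/LOV protein B (Phvul.002G066800), a blue-light-sensing LOV protein, was higher at all 3 ages, by a log2 difference of 1.94 (adjusted p = 1.9e-04), 2.10 (1.1e-04) and 1.01 (0.021). It stood at 28.7 ± 4.48 against 7.47 ± 1.76 FPKM at 10 DAF. The call at 18 DAF ended without golden replicate 2 or 3 or green replicate 1 or 3 (up to 0.083). The kelch-repeat genes moved less, between -0.47 and 0.75 at 10 DAF.

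Of the 29 tested genes on the list of clock and daylength outputs, 16 were higher and 1 lower in golden pods at 10 DAF, 13 and 1 at 14 DAF, and 4 and 1 at 18 DAF (58.6%, 48.3% and 17.2% called, beside 32.6%, 41.5% and 15.0% of all genes). The median log2 differences were 0.94, 0.85 and 0.44. CDF genes, whose Arabidopsis proteins are the targets of FKF1 with GI, numbered 6, of which 3 were higher and 1 lower at 10 and at 14 DAF. Both genes of the clock-controlled RNA-binding protein CCR2 were higher at 10 and at 14 DAF (median log2 1.59 and 1.74). A CONSTANS-like 2 gene (Phvul.001G137925) stood at 14.6 ± 1.68 FPKM in golden and 1.19 ± 0.295 in green pods at 10 DAF. It was higher at all 3 ages, by 3.62 (adjusted p = 1.4e-05), 2.13 (4.5e-04) and 2.83 (1.5e-04).

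In Arabidopsis the PEBP family includes the flowering signal FT and its antagonist TFL1. Its genes were higher in golden pods for 3 of 5 tested at 10 DAF and 4 of 5 at 14 DAF. The shares of all tested genes called in either direction were 32.6%, 41.5% and 15.0% at 10, 14 and 18 DAF. At 18 DAF 2 PEBP genes were higher and 1 lower. The lower one, Phvul.002G327700, had 4, 569 and 3 counts in green and 0 in each golden library at 18 DAF. Phvul.004G119700 had 20.8, 42.7 and 38.5 FPKM in golden and 3.10, 3.03 and 3.16 in green libraries at 10 DAF (log2 3.46, adjusted p = 0.0025). Phvul.001G097300 and Phvul.004G074700 had 63, 64 and 210 and 59, 43 and 40 counts in the golden libraries at 10 DAF and 0 in each green library. Against a floor of 3 counts over the green group, which covers counting error only, they were at least 108-fold and at least 45.5-fold higher (adjusted p = 0.0065 and 0.014). For Phvul.001G097300 the bound was 62.3-fold without golden 10 DAF replicate 3.

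Photoreceptor genes were higher for 5 and lower for 1 of 13 at 10 DAF, 8 and 1 at 14 DAF, and higher for 1 at 18 DAF (46.2%, 69.2% and 7.69% called, beside 32.6%, 41.5% and 15.0% of all genes). Among them a cryptochrome 2 gene, a blue-light receptor (Phvul.007G273300), was higher by 1.71 (adjusted p = 0.0012) and 2.11 (2.9e-04) at 10 and 14 DAF. In light signalling, 3 of 14 genes were higher and 1 lower at 10 DAF, 7 and 2 at 14 DAF, and 4 and 1 at 18 DAF (28.6%, 64.3% and 35.7% called). A gene of the SPA family (Phvul.010G111200), whose Arabidopsis members act in the COP1 ubiquitin ligase that removes CONSTANS in the dark, stood at 17.6 ± 4.59 against 0.470 ± 0.0348 FPKM at 10 DAF (log2 5.22, adjusted p = 1.7e-05). A phytochrome interacting factor 3 gene (Phvul.007G208500) was lower, at 1.38 ± 0.411 against 7.38 ± 3.42 FPKM (log2 -2.42, 0.0048), and -5.07 (1.5e-04) at 18 DAF.

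The wider KEGG group for the plant circadian rhythm had a share of calls close to that of all genes. Of its 202 tested genes without the 6 described above, 51 were higher and 17 lower at 10 DAF (33.7%, beside 32.6% of all genes), 60 and 24 at 14 DAF (41.6% beside 41.5%), and 27 and 10 at 18 DAF (18.3% beside 15.0%). Of 61 other genes with the gene ontology term circadian rhythm, which all 6 carry, 16 were higher and 5 lower at 10 DAF, 21 and 7 at 14 DAF, and 9 and 1 at 18 DAF (34.4%, 45.9% and 16.4%).

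Other gene groups were set beside the same shares of all genes, 32.6%, 41.5% and 15.0%. Light-harvesting antenna genes were higher in golden pods for 17 of 34 at 10 DAF, 30 at 14 DAF and 29 at 18 DAF (50.0%, 88.2% and 85.3%). Their summed level was 22200 to 28100 FPKM in golden and 15300 to 15800 in green libraries at 10 DAF, 22400 to 28800 and 10300 to 12200 at 14 DAF, and 20000 to 44000 and 6550 to 13900 at 18 DAF. The antenna gap was thus open at 18 DAF, when that of the afternoon genes was small. Small heat shock proteins were higher for 6 and lower for 12 of 54 at 10 DAF, 3 and 22 at 14 DAF, and 4 and 2 at 18 DAF, shares of 33.3%, 46.3% and 11.1% that were near those of all genes. Their sum was 2000 to 2570 FPKM in golden and 4900 to 6630 in green libraries at 10 DAF, 1820 to 3070 and 4780 to 13200 at 14 DAF, and 3940 to 6920 and 2480 to 5430 at 18 DAF. Seed storage and late embryo genes were higher for 14 and lower for 12 of 108 at 10 DAF, 11 and 27 at 14 DAF, and 5 and 4 at 18 DAF, shares of 24.1%, 35.2% and 8.33% that were below those of all genes. Their sum was 10800 to 11900 FPKM in golden and 5730 to 6360 in green libraries at 10 DAF, 6160 to 7710 and 7980 to 10400 at 14 DAF, and 4900 to 8650 and 4900 to 7320 at 18 DAF. Of the 33 fruit identity genes in the table, 18 were tested. At 10 DAF 4 were higher and 1 lower, at 14 DAF 3 and 1, and at 18 DAF 2 were higher (27.8%, 22.2% and 11.1%, also below). The sum of the 33 was 140 to 182 FPKM in golden and 76.2 to 98.8 in green libraries at 10 DAF. It was 196 to 286 and 65.2 to 98.4 at 14 DAF, and 81.8 to 206 and 73.5 to 116 at 18 DAF. The part of these groups in the levels of the clock genes was not tested.

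The genes most like the afternoon genes were ranked by the correlation of log2 CPM with the mean standardized profile of the 6 over 18 libraries. The 10 nearest had r = 0.966 to 0.981, and with each line's mean removed 0.855 to 0.946. The nearest, Phvul.002G197800, has no description and stood at 177 ± 42.0 FPKM in golden and 20.9 ± 1.18 in green pods at 10 DAF, and at 118 ± 45.9 and 64.2 ± 12.4 at 18 DAF. It was followed by a phosphoribulokinase and uridine kinase family gene (Phvul.003G180800), an alpha-crystallin domain gene (Phvul.008G264700), an aleurain-like protease (Phvul.009G227100), alpha-glucan phosphorylase 2 (Phvul.006G064100), and NDH-dependent cyclic electron flow 5 (Phvul.004G079500). The rest were a protein kinase (Phvul.008G083700), an ER lumen protein retaining receptor (Phvul.009G016900;Phvul.009G017000), an O-methyltransferase (Phvul.008G167800) and a DUF23 gene (Phvul.009G244900). None of the 10 is on the clock or light lists. Among core clock genes the response regulator Phvul.009G185500 came nearest, at rank 57 (r = 0.94), then PAS/LOV protein B at rank 76 (0.94) and the LHY-group gene Phvul.007G074500 at rank 135 (0.92). Within groups, the profile of the 6 correlated at 0.83 with the fused PRR7 and PRR3 locus and at 0.71 with Phvul.009G185500. These were the highest such values among the core clock genes. The LHY-group gene Phvul.004G143400 was close behind at 0.69, PRR7 stood at 0.34, and the lowest was ELF4-like 4 on Phvul.009G228400 at -0.54.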

How the data were processed

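Poly(A) RNA of 18 libraries was sequenced as read pairs, per the labels' protocols. For every gene the authors deposited FPKM and estimated counts, per the file headers, and the counts were whole as deposited. Aligner, genome build, counting program and strand: not given in the sources used here. Counts were tested with edgeR 4.0.16 (R 4.3.3). Its expression filter kept 22805 genes and removed 2319. After TMM scaling, a quasi-likelihood model with a mean for each of the 6 groups was fitted (common dispersion 0.155, 12 residual degrees of freedom), with two-sided tests adjusted over all genes kept. The fitting was tested on simulated data. The 635 genes without a name (2.2% to 3.97% of the counts) stayed in the fit. Member counts were 87 to 46138, and all errors and p-values rest on the spread between 3 replicates a group. A check for a library deposited more than once within a group found none (lowest chi-square between replicates 51.3 per gene). Libraries of different groups were not compared in this way.

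The 6 genes and all gene lists were chosen with earlier results of these data known; the LHY, ZTL and gene ontology lists were added once the annotation had been seen, and the output families were split after their values were seen. The text names the 6 genes, every tested dawn and evening gene, up to 4 called genes of largest change from each other list and the 10 genes of most similar pattern; the remaining named genes were chosen after their values were seen. Alternatives were DESeq2 1.42.0, no filter, limma 3.58.1 on log2(FPKM + 1) and log2(FPKM + 0.1), a replicate block, a fit of the compared groups alone and omission of each library. A planned search of promoters and proteins was not run, since no sequence of these genes was at hand. Tables were handled in Python 3.11.15 with pandas 2.3.3.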

Additional observations from a re-analysis of the deposited data

Results flagged for a closer look

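The change with age ran in opposite directions in the lines for several of the 6 genes, with every golden library of the later age on one side of the earlier age and every green library on the other. No share of all tested genes was set beside this pattern, so nothing is read from it. The differences between the lines in these changes were not tested, because they are built from the comparisons that picked the genes. From 14 to 18 DAF the golden change minus the green change, on the log2 scale, was -1.18 for GIa, -2.57 for GIb, -2.01 for FKF1, -3.30 for PRR5a and -1.20 for PRR5c. From 10 to 18 DAF it was -1.94 for GIa, -3.77 for GIb, -2.84 for FKF1 and -3.96 for PRR5a. Some of the changes behind these values did not pass the edgeR test. These were GIa in golden pods (adjusted p = 0.11 from 14 and 0.12 from 10 to 18 DAF) and PRR5c in green pods from 14 to 18 DAF (0.21).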

How the results depend on the processing

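The line differences of the 6 genes kept their direction under every alternative run. These differences had picked the genes, so nothing is read from their unchanged direction. Their median was 2.63 at 10 DAF with limma on log2(FPKM + 1), and 2.80 to 3.09, 2.10 to 2.33 and 0.50 to 0.89 at 10, 14 and 18 DAF with any 1 library left out. Age calls among the 6 moved more. With any 1 library left out they numbered 0 to 1, 1 to 3 and 1 to 2 in golden pods (14 v 10, 18 v 14, 18 v 10 DAF) and 0 to 3, 1 to 4 and 4 to 5 in green pods. DESeq2 called 1 for golden 14 v 10 DAF, and limma on log2(FPKM + 1) called 1 for green 14 v 10 DAF. A fit of the compared groups alone called 0 for golden and 0 for green 18 v 14 DAF, where fewer libraries set the spread; over all genes it called 44 and 91 there, against 2426 and 1586. Replicate numbers did not pair the samples (deviations correlated at -0.21 to 0.18), and with a replicate block 2 of the 6 were called for golden 18 v 14 DAF, 2 for green 14 v 10 DAF and 3 for green 18 v 14 DAF, against 4, 3 and 4. The block also ended the line call of PRR7 at 18 DAF and the calls of Phvul.010G130900 and the fused PRR7 and PRR3 locus in the difference of changes between the lines. Changes near 0 that passed no test turned sign. PRR5b golden 18 v 10 DAF was -0.20 and -0.21 with limma on log2(FPKM + 1) and log2(FPKM + 0.1), and ran from -0.34 to 0.26 with libraries left out. Under omissions golden 14 v 10 DAF ran from -0.03 to 0.14 for GIa, -0.00 to 0.51 for GIb and -0.02 to 0.19 for FKF1, and PRR5c from -0.34 to 0.17 (golden 18 v 10 DAF) and -0.14 to 0.16 (green 14 v 10 DAF). The KEGG circadian group had 1, 20 and 39 calls in golden and 12, 15 and 80 in green pods (14 v 10, 18 v 14, 18 v 10 DAF). DESeq2 gave 12, 43 and 61 in golden pods, and 24 and 31 for green 14 v 10 and 18 v 14 DAF. For golden 14 v 10 DAF it was 0 without a filter, 5 and 3 with limma (FPKM + 1 and + 0.1), 0 with the replicate block and 0 with the compared groups alone. The block gave 11 and 8 for golden and green 18 v 14 DAF. The compared groups alone gave 0 and 0 there, 21 for green 14 v 10 DAF and 7 for the lines at 18 DAF, against 37. Omissions gave 0 to 11, 4 to 39 and 19 to 49 in golden pods, 2 to 15, 3 to 15 and 50 to 67 in green pods, and 53 to 63, 55 to 85 and 21 to 36 between the lines at 10, 14 and 18 DAF. Of the 10 genes most alike, 4 stayed among the 10 with each line's mean removed. The cause of these shifts was not tested.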
